A study of Mus musculus with 6 samples.

Results

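Myosin light chains and the kinases that phosphorylate them were followed in embryonic mouse hearts. The genes of the RNA-binding proteins RBPMS and RBPMS2 had been targeted for deletion in their cardiomyocytes. The light chain and kinase genes were taken from the expression table by symbol and are 10 of its 45706 genes. Of these, 4 encode regulatory light chains (Myl2, Myl7, Myl9 and Myl12a), 4 encode essential light chains (Myl3, Myl4, Myl1 and Myl6) and 2 encode light chain kinases (Mylk3 and Mylk). Between double knockout (dKO) and control hearts Myl9 fell to 39.2% of the control level, Myl4 to 63.6% and Myl6 to 81.7%, Mylk3 rose to 129%, and the other 6 did not pass the test.

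Poly(A) RNA of whole hearts from C57BL6/J mice was sequenced as stranded paired-end libraries, 1 heart per library. The 3 dKO hearts carried floxed alleles of both genes, written RBPMS flox/flox RBPMS2 flox/flox, together with a transgene labelled aMyHC Cre pos, in which the alpha-myosin heavy chain promoter, active in cardiomyocytes, drives Cre recombinase. The 3 control hearts were littermates with the same floxed alleles and no Cre label. The transgene and the deletion therefore cannot be told apart, the day of gestation is not given in the labels, and nothing in the labels ties a dKO heart to a particular control heart. Beyond calling the controls littermates, the labels do not say how the hearts are related. The p-values set the difference between the groups against the spread of these 6 hearts within their groups.

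Each myosin head carries an essential light chain, which supports its lever arm, and a regulatory light chain, whose phosphorylation by a calmodulin-dependent kinase tunes force in striated muscle and switches contraction on in smooth muscle and non-muscle cells. Ventricular muscle uses the pair encoded by Myl2 and Myl3, atrial muscle the pair encoded by Myl7 and Myl4, and smooth muscle and non-muscle myosin use Myl9, Myl12a and Myl6, while Myl1 belongs to fast skeletal muscle. In mouse embryos the ventricle also transcribes Myl4 and, early on, Myl7. Mylk3 encodes the cardiac light chain kinase, and Mylk encodes the kinase of smooth muscle and non-muscle cells, whose gene also yields telokin.

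The stretches just upstream of the light chain genes are shown for the members that hold a CArG box, the motif bound by serum response factor, because they set the chain that fell furthest beside members that did not pass the test. All 10 members were matched by symbol to promoter windows of RefSeq (GRCm38.p6), 13 windows in all, and the bases from -250 to -45 relative to the RefSeq start, 206 per window, were searched on both strands. The sequences run 5′ to 3′ on the strand of the gene, with the CArG box in capitals. They lie at chr2:156775214-156775419 on the plus strand for Myl9, at chr9:110763428-110763633 on the plus strand for Myl3 and at chr11:5898827-5899032 on the minus strand for Myl7.
Myl9: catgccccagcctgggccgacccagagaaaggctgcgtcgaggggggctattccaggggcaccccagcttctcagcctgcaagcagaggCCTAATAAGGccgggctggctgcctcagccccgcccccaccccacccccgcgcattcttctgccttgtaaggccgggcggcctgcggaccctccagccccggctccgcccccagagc
Myl3: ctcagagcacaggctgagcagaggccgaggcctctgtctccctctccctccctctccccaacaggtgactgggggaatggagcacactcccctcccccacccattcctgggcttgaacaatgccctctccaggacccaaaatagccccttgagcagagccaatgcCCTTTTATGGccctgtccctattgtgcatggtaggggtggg
Myl7: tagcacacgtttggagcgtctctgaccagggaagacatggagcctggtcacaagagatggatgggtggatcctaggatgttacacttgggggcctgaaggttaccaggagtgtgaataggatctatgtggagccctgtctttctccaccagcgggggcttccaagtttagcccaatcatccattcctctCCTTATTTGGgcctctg

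The box spans -161 to -152 in Myl9, -85 to -76 in Myl3 and -61 to -52 in Myl7, and it overlaps 0 matches of the other motifs searched. The box was thus found in 3 of the 13 member windows (3 of the 10 members), against 1.2% of all 32851 RefSeq windows of the same length. A MEF2 site was found in 0 of the 13 member windows (2.47% of all windows), the letters CANNTG in 7 (60.0% of all) and GATA in 5 (48.8% of all). A match is a string of letters and not a measured site. The windows listed for Myl2 end at chr5:122093144, before the annotated gene starts at 122100951. That of Myl4 lies upstream of the start of the principal transcript in the gene annotation. The promoters used in the heart may therefore not have been searched for Myl2 and Myl4. Windows of other members lie inside the annotated gene, among them both of Mylk3 and the only 1 of Mylk (chr16:34784700-34784905, gene start 34745210). Starts of those genes outside the windows were not searched, and the 0 for MEF2 sites holds only for the windows searched.

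Values are the read numbers per gene as deposited, already scaled per sample and rounded, and are called values here. The 6 totals lay between 17861435 and 18439201, behind which stand an estimated 12957977 to 25837261 reads per library. Rbpms had values of 1134, 1117 and 852 in dKO hearts, against 6998, 3868 and 7656 in control hearts (log2 fold change -2.53, SE 0.22, limma adjusted p = 0.000325), and Rbpms2 had 879, 1003 and 911 in dKO hearts, against 1711, 1362 and 1998 in control hearts (-0.84, SE 0.12, adjusted p = 0.00207). In whole dKO hearts Rbpms RNA thus remained at 17.3% and Rbpms2 RNA at 55.7% of control, and protein was not measured. Of 15556 genes tested with limma on log2(value + 1), 2670 passed an adjusted p of 0.05, 1339 higher and 1331 lower in dKO hearts. Without dKO replicate 2 or control replicate 3 the count was 1319 or 1669, and with equal totals 1569 were higher and 1091 lower. The call rate is thus 17.2% of all tested genes, 8.61% higher and 8.56% lower, and 35.4% of tested genes had groups that did not overlap. Among the members 4 of 10 were called, 1 higher and 3 lower, the same 4 had groups that did not overlap, and the median log2 fold change was -0.14, against 0.002 over all genes tested. A count over 10 genes is coarse beside that rate.

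**Figure D1:**
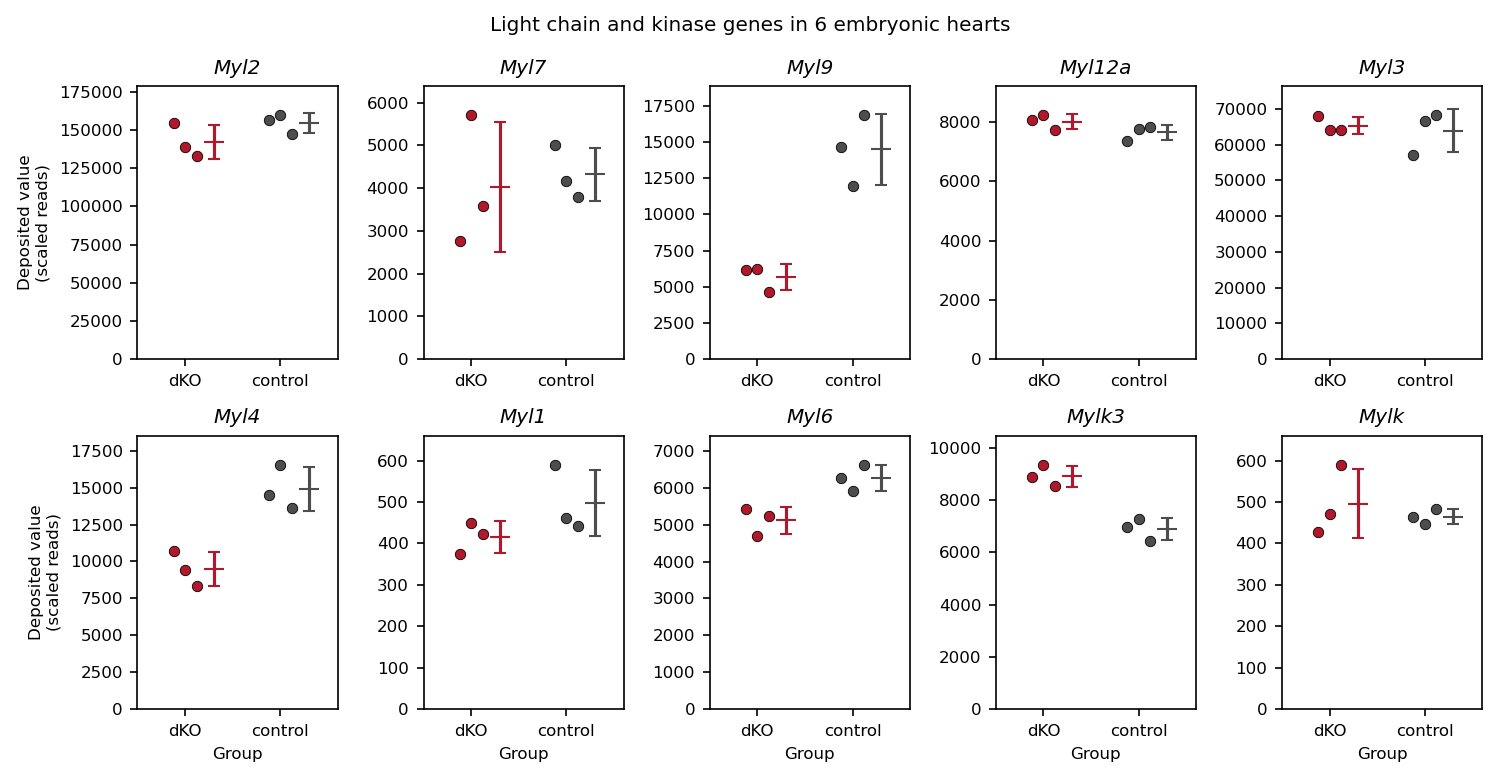
Deposited value (scaled reads, linear axes from 0) of each of the 10 genes in the 3 dKO and 3 control hearts, as points, with the mean and SD of each group beside them. The groups are separate for Myl9, Myl4, Myl6 and Mylk3, and dKO values of Myl7 reach from 2759 to 5705, below and above all 3 control hearts.

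Myl9, the regulatory chain of smooth muscle and non-muscle myosin (ENSMUSG00000067818, chr2:156775420-156781658, plus strand, mm10), had values of 6186, 6210 and 4626 in dKO hearts, against 14628, 11970 and 16838 in control hearts. Every dKO heart lay below every control heart. The means were 5674 ± 908 in dKO and 14479 ± 2437 in control hearts (SD, n = 3 each). The log2 fold change was -1.35 (SE 0.14, 95% interval -1.66 to -1.04, limma adjusted p = 0.000553), and by p it ranked 53 of all 15556 genes and 30 among those that were lower. In whole hearts, fewer cells of a type and less RNA per cell cannot be told apart. The fall was not shared by Myl12a, the non-muscle regulatory chain (ENSMUSG00000024048, chr17:70993656-71002878, minus strand), with values of 8056, 8220 and 7733 in dKO hearts and 7340, 7769 and 7816 in control hearts. These groups overlapped, and the change was 0.07 (SE 0.06, 95% interval -0.07 to 0.20, adjusted p = 0.497). The ratio of the Myl9 value to the Myl12a value was 0.768, 0.755 and 0.598 in dKO hearts, against 1.99, 1.54 and 2.15 in control hearts. This ratio of reads compares hearts and does not rank the genes, whose principal transcripts have 1128 bases (Myl9) and 1937 bases (Myl12a). Per kilobase of these transcripts Myl9 lay above Myl12a in every heart of both groups. In dKO replicates 1 to 3 it was at 5484, 5505 and 4101, against 4159, 4244 and 3992 for Myl12a. Of the 75-base windows in Myl12a transcripts, 18.5% also occur in Myl12b or in Myom1, which overlaps it on the other strand, so its value is less certain, and Myl9 shares 0%.

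Myl2, the ventricular regulatory chain (ENSMUSG00000013936, chr5:122100951-122113472, plus strand), had values of 154406, 138823 and 133248 in dKO hearts and 156713, 159712 and 147490 in control hearts. The lowest dKO hearts lay below all controls, but dKO replicate 1 lay within them. The means were 142159 ± 10966 in dKO and 154638 ± 6370 in control hearts, and the log2 fold change of -0.12 (SE 0.10, 95% interval -0.34 to 0.09, adjusted p = 0.42) did not pass; after quantile normalization it was 0.03. Myl7, the atrial regulatory chain (ENSMUSG00000020469, chr11:5896637-5898782, minus strand), had values of 2759, 5705 and 3593 in dKO hearts and 5009, 4157 and 3802 in control hearts. Replicates 1 and 3 of the dKO lay below every control heart and replicate 2 above every one, which gave a coefficient of variation of 37.8% in dKO and 14.4% in control hearts. Its change was -0.16 (SE 0.21, 95% interval -0.64 to 0.31, adjusted p = 0.653), and it was 0.08 without dKO replicate 1 and -0.45 without dKO replicate 2 (adjusted p = 0.818 and 0.0812).

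Per kilobase of the principal transcript, Myl2 was by far the most abundant regulatory chain, at 159909 ± 12336 in dKO hearts and 173946 ± 7165 in control hearts (SD, n = 3 each). Myl9 was at 5030 ± 805 per kilobase in dKO hearts and 12836 ± 2161 in control hearts, Myl7 at 6812 ± 2574 in dKO and 7327 ± 1051 in control hearts, and Myl12a at 4132 ± 128 in dKO and 3945 ± 135 in control hearts. In each control heart the order was therefore Myl2, Myl9, Myl7 and Myl12a, while in dKO hearts Myl7 and Myl9 did not differ beyond their spread and Myl9 was second in 1 of 3. As a share of all regulatory chain transcripts per length, Myl9 held 2.49% to 3.13% in dKO hearts, against 5.26% to 7.78% in control hearts. The share of Myl2 was 88.6% to 92.1% in dKO and 86.4% to 89.0% in control hearts, and that of Myl7 was 2.48% to 5.49% in dKO and 3.36% to 4.2% in control hearts. The Myl9 shares did not overlap, those of Myl2 and Myl7 did, and shares carry no test here. The summed level of the class per length was 164643 to 188550 in dKO hearts and 191918 to 202125 in control hearts.

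Among the essential chains, Myl4, the chain of atrial and embryonic muscle (ENSMUSG00000061086, chr11:104550663-104595753, plus strand), had values of 10683, 9451 and 8336 in dKO hearts, against 14493, 16531 and 13631 in control hearts. The groups were apart, with every dKO heart below every control heart. The means were 9490 ± 1174 in dKO and 14885 ± 1489 in control hearts, a log2 fold change of -0.65 (SE 0.10, 95% interval -0.88 to -0.43, adjusted p = 0.00264). Myl3, its ventricular counterpart (ENSMUSG00000059741, chr9:110741861-110769798, plus strand), had 68000, 64079 and 63976 in dKO hearts and 57023, 66628 and 68210 in control hearts. All dKO values fell within the range of the controls, and the change was 0.04 (SE 0.09, 95% interval -0.17 to 0.24, adjusted p = 0.832); it was -0.05 without control replicate 1, and 0.29 with an adjusted p of 0.03 after quantile normalization. The ratio of Myl4 to Myl3 was 0.157, 0.147 and 0.13 in dKO hearts, against 0.254, 0.248 and 0.2 in control hearts. Each dKO ratio lay below each control ratio.

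Myl6, the essential chain of smooth muscle and non-muscle myosin (ENSMUSG00000090841, chr10:128490860-128494145, minus strand), had values of 5412, 4704 and 5248 in dKO hearts, against 6256, 5915 and 6615 in control hearts. The groups did not overlap, though the gap between them was narrow. The change was -0.29 (SE 0.07, 95% interval -0.45 to -0.13, adjusted p = 0.0235), but the adjusted p was 0.119 without dKO replicate 2, 0.0821 without control replicate 3 and 0.0559 with no filter on low values. Pseudogenes share 5.42% of its 75-base windows, and the highest of them, Gm5526, had values of 161, 120 and 172 in dKO and 226, 254 and 267 in control hearts. Myl1, the fast skeletal chain (ENSMUSG00000061816, chr1:66924295-66945404, minus strand), was low, at 374, 449 and 423 in dKO hearts and 589, 462 and 441 in control hearts. Its groups overlapped and its change of -0.25 (SE 0.12, 95% interval -0.52 to 0.02, adjusted p = 0.188) did not pass. Of its windows, 8.08% are shared with the pseudogene Mylf-ps.

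Per kilobase the essential chains kept the order Myl3, Myl4, Myl6 and Myl1 by mean in both groups. Myl3 was at 69746 ± 2448 in dKO and 68254 ± 6461 in control hearts, and Myl4 at 10064 ± 1245 in dKO and 15785 ± 1579 in control hearts (SD, n = 3 each). Myl6 was at 7701 ± 557 in dKO and 9417 ± 526 in control hearts, and Myl1 at 517 ± 47.4 in dKO and 619 ± 99.7 in control hearts. Myl4 thus stood clear of Myl6 in control hearts and closer to it in dKO hearts. Myl4 held 10.3% to 12.2% of essential chain transcripts per length in dKO hearts, against 14.8% to 17.9% in control hearts, and Myl3 held 78.4% to 79.8% in dKO hearts, against 70.4% to 74.4% in control hearts. Shares are bound to sum to 100%, so the higher share of Myl3 goes with the lower ones of Myl4 and Myl6, whose own share was 8.22% to 9.22% in dKO and 9.06% to 10.9% in control hearts. With the length of all annotated exons in place of the principal transcript, Myl4 held 5.14% to 6.15% in dKO and 7.61% to 9.39% in control hearts, and Myl9 held 4.91% to 6.0% of the regulatory class in dKO and 10.1% to 14.6% in control hearts. The size of a share thus depends on the length used, while the shares of Myl4 and of Myl9 were apart between the groups with either length. Those of Myl6 overlapped per principal transcript and, with all exons, were apart at 4.2% to 4.71% in dKO and 4.85% to 5.89% in control hearts.

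**Figure D2:**
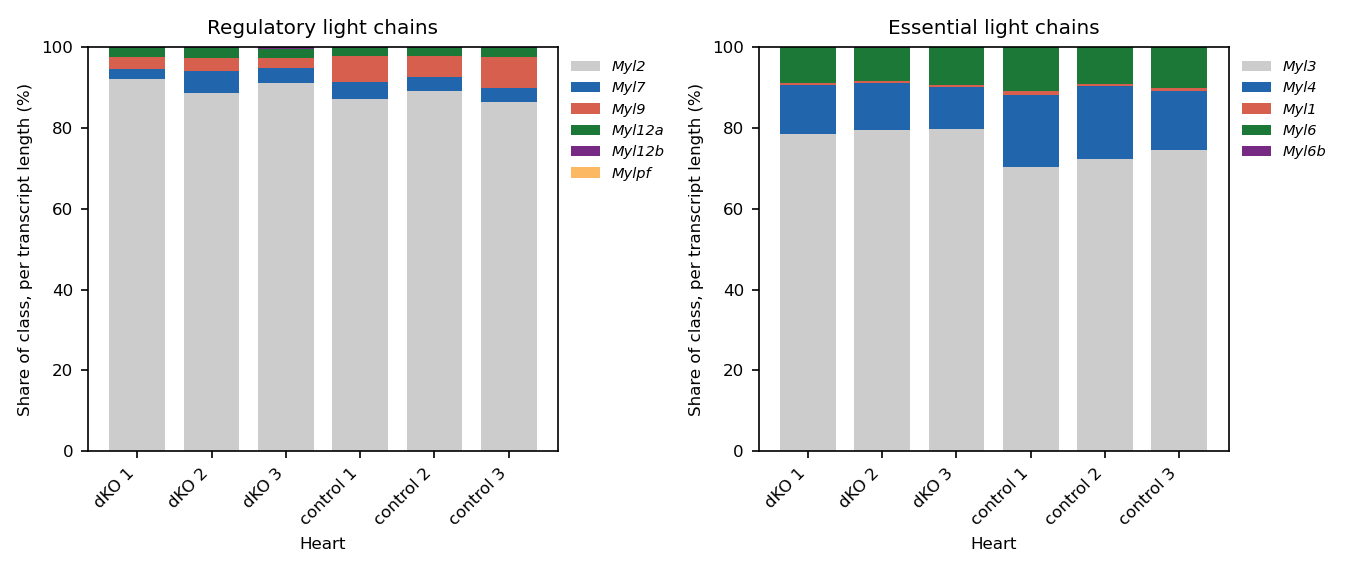
Share of each gene in the summed level of its class per principal transcript length (%), one stacked bar per heart, dKO hearts left of control hearts; regulatory chains are in the left panel and essential chains in the right. Myl9 takes 2.49% to 3.13% in dKO hearts and 5.26% to 7.78% in control hearts, and Myl4 takes 10.3% to 12.2% in dKO hearts and 14.8% to 17.9% in control hearts.

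Mylk3, the cardiac light chain kinase (ENSMUSG00000031698, chr8:85324303-85386345, minus strand), was the only member that rose. Its values were 8872, 9342 and 8533 in dKO hearts, against 6986, 7284 and 6431 in control hearts, and every dKO heart lay above every control heart. The means were 8916 ± 406 in dKO and 6900 ± 433 in control hearts, a log2 fold change of 0.37 (SE 0.07, 95% interval 0.22 to 0.52, adjusted p = 0.00625). Its value relative to that of Myl2, which encodes the substrate of the kinase in the ventricle, was 0.0575, 0.0673 and 0.064 in dKO hearts, against 0.0446, 0.0456 and 0.0436 in control hearts. These ratios of reads did not overlap either. Mylk (ENSMUSG00000022836, chr16:34745210-35002420, plus strand) had values of 428, 471 and 589 in dKO hearts and 464, 446 and 482 in control hearts, which overlap on both sides. Its change was 0.08 (SE 0.12, 95% interval -0.17 to 0.34, adjusted p = 0.67), and it was -0.05 without dKO replicate 3, the heart with the highest value. Antisense transcripts share 3.55% of its windows.

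Per kilobase of transcript Mylk3 was at 2412 ± 110 in dKO and 1867 ± 117 in control hearts and Mylk at 63.4 ± 10.7 in dKO and 59.3 ± 2.3 in control hearts (SD, n = 3 each), so that Mylk3 made up 96.6% to 97.4% of light chain kinase transcripts in dKO hearts and 95.6% to 96.4% in control hearts. The other member of the kinase family with a tested value, Mylk4, moved the opposite way. It had values of 39, 41 and 24 in dKO hearts, against 110, 81 and 92 in control hearts, with no overlap (log2 fold change -1.44, SE 0.23, adjusted p = 0.00308). Per kilobase it was at 6.22 ± 1.67 in dKO and 16.9 ± 2.63 in control hearts, a small part of the kinase transcripts in either group. Mylk2, the skeletal muscle kinase, had values of 5, 7 and 6 in dKO hearts and 5, 4 and 3 in control hearts, too low to be tested.

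**Figure D3:**
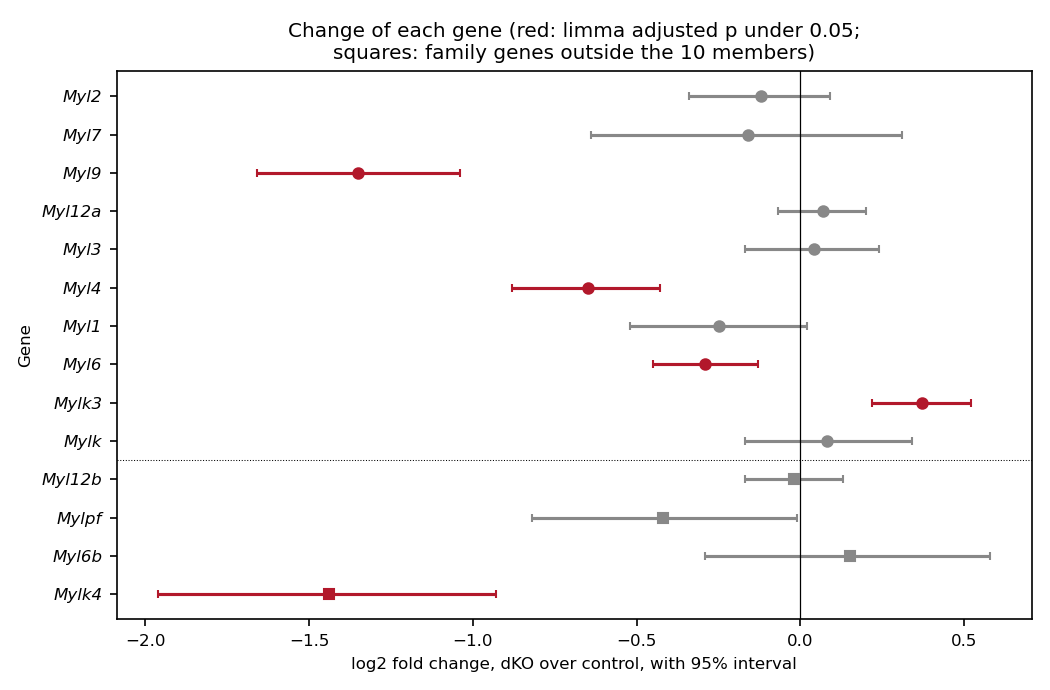
Log2 fold change of dKO over control with its 95% interval for the 10 members (circles, above the dotted line) and 4 further family genes (squares), red where the limma adjusted p was under 0.05. The changes run from -1.35 for Myl9 to 0.37 for Mylk3 among the members, and Mylk4 lies at -1.44.

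Of the 6 other light chain and kinase genes, 4 had values high enough to be tested, and 1 of them, Mylk4, fell, with a median of -0.22. Myl12b, the close paralogue and neighbour of Myl12a, was at 1040, 1103 and 1100 in dKO hearts and 1076, 1074 and 1148 in control hearts (log2 fold change -0.02, SE 0.07, adjusted p = 0.846). Mylpf, the fast skeletal regulatory chain, was at 46, 53 and 47 in dKO hearts and 73, 70 and 54 in control hearts (-0.42, SE 0.18, adjusted p = 0.151). Neither passed the test, although the Mylpf groups did not overlap. Myl6b, an essential chain of slow skeletal and non-muscle cells next to Myl6, was at 60, 47 and 73 in dKO hearts and 55, 54 and 51 in control hearts (0.15, SE 0.20, adjusted p = 0.659), and Myl10 is listed at 0 in all 6 hearts.

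Genes of the phosphatase that acts against the kinases, and of its inhibitors, moved in part. Of 9 genes of the light chain phosphatase and its inhibitors, 1 rose and 2 fell, with a median of -0.07. Ppp1r14c, which encodes an inhibitor of protein phosphatase 1, had values of 13977, 13983 and 14048 in dKO hearts, against 10152, 10752 and 9430 in control hearts (1.39-fold, adjusted p = 0.00182). Ppp1cb, the catalytic subunit shared by the myosin phosphatase, had 9575, 8386 and 7591 in dKO hearts, against 12370, 11240 and 10855 in control hearts (0.739-fold, adjusted p = 0.01). Both pairs of groups were apart. Ppp1r16b, a regulatory subunit, fell to 199, 202 and 209 in dKO hearts, against 276, 258 and 242 in control hearts (adjusted p = 0.0435), a call lost on leaving out any 1 of the 6 hearts (adjusted p 0.0617 to 0.127) and under 3 of 9 other settings. The myosin targeting subunits Ppp1r12a, Ppp1r12b and Ppp1r12c were among the 6 that did not pass.

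Of 13 other kinases and regulators that act on the light chains or their phosphatase, 0 rose and 1 fell, with a median of 0.06. The 1 was Cit, the citron kinase of cytokinesis, with 327, 303 and 356 in dKO hearts, against 491, 512 and 525 in control hearts (0.645-fold, adjusted p = 0.00195). Without dKO replicate 1 or control replicate 1 the count was 2. Of 4 tested calmodulin genes, whose product activates the kinases, 0 passed with limma, with 0 at an unadjusted p under 0.05 and 0 with limma-voom, and the median was -0.03. Calm3 had values of 5198, 4946 and 5638 in dKO hearts and 5547, 5915 and 6083 in control hearts (adjusted p = 0.163), and Calm2 had 4694, 4431 and 4347 in dKO hearts and 5090, 4867 and 4718 in control hearts (adjusted p = 0.207).

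Of the 7 heavy chain genes whose products bind these light chains, 0 rose and 2 fell, with a median of -0.06. Myh6, the alpha-myosin heavy chain and the gene whose promoter drives the Cre, had values of 31576, 39554 and 31568 in dKO hearts, against 106187, 86437 and 102984 in control hearts (log2 fold change -1.53, SE 0.11, adjusted p = 0.000239). Myh11, the smooth muscle heavy chain, had 80, 40 and 31 in dKO hearts, against 153, 106 and 141 in control hearts (0.357-fold, adjusted p = 0.00949). Without control replicate 2 the count of heavy chains called was 4. Of 13 other thick filament and M-band genes, 2 rose and 1 fell, with a median of -0.11; the count was 1 without dKO replicate 2 and 5 without dKO replicate 1 or control replicate 1. Myom2, a protein of the M-band, was at 6122, 8249 and 6286 in dKO hearts, against 3519, 2921 and 3459 in control hearts (2.07-fold, adjusted p = 0.000684), while Trim55, a ubiquitin ligase of the M-band region, fell to 0.787-fold (adjusted p = 0.0117, and 0.0644 without dKO replicate 2). Mybphl, the atrial relative of myosin-binding protein H, rose with an adjusted p of 0.0497, a call lost under 4 of 9 other settings and on leaving out 4 of the 6 hearts.

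The atrial chains Myl7 and Myl4 were set beside 13 other genes marking atrial muscle. Of these 4 rose and 0 fell, with a median of 0.39 and a summed value of 42300, 51104 and 49122 in dKO hearts, against 31135, 34831 and 30463 in control hearts. Nppa, the atrial natriuretic peptide, had 13576, 16758 and 18230 in dKO hearts, against 3635, 6446 and 3743 in control hearts, and Nr2f2, an atrial transcription factor, Bmp10, an atrial growth factor, and Gja5, a gap junction protein, rose too; the embryonic ventricle also expresses Nppa, Bmp10 and Gja5. On leaving out 1 heart the adjusted p was up to 0.0906 for Bmp10, which lost its call without dKO replicate 2 or control replicate 3, and up to 0.126 for Gja5, which kept it in 2 of 6 fits. Myl4 thus moved opposite to those 4. Within the dKO hearts, 10 of the 13 genes were highest in replicate 2, while Nppa, Nr2f2 and Gja5, which had risen, were highest in replicate 3. Replicate 2 was also the highest dKO heart for 7 of 10 macrophage, 6 of 12 endothelial and endocardial and 1 of 10 epicardial genes. The share over all tested genes was not counted. Myl7 was also highest in dKO replicate 2, whereas Myl4 in that heart was the middle of the 3. The ratio of Myl4 to Myl7 accordingly ran from 1.66 to 3.87 in dKO hearts, against 2.89 to 3.98 in control hearts. The amount of atrial tissue in each heart was not measured, and its part in the Myl7 and Myl4 values was not tested. Without control replicate 3 the count of atrial genes called, Myl4 included, was 3 and not 5.

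**Figure D4:**
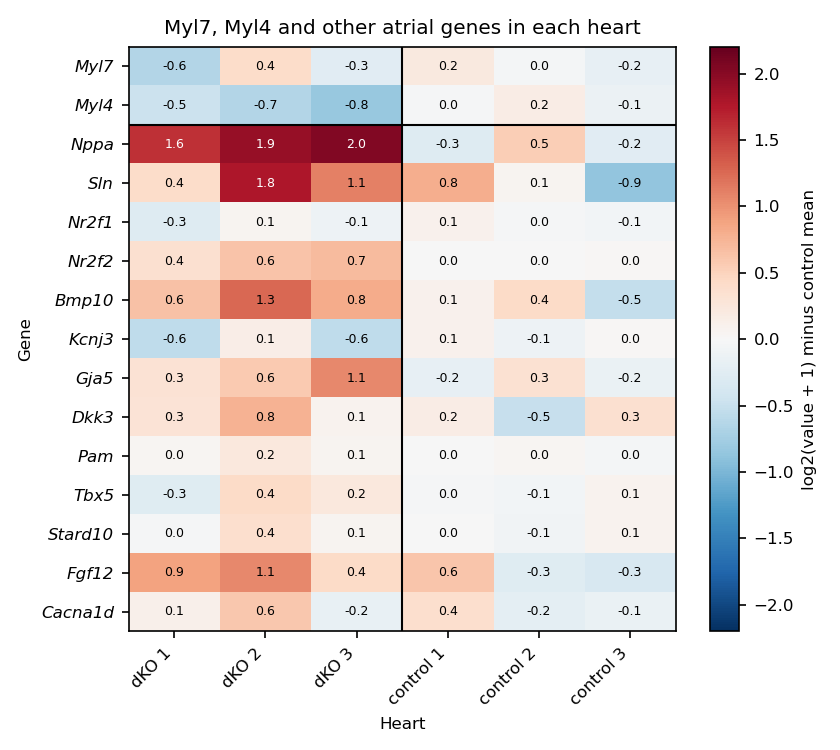
Colour and number give log2(value + 1) minus the control mean of each gene, by heart, for Myl7 and Myl4 (above the horizontal line) and the 13 other atrial genes, with dKO hearts left of the vertical line. Nppa is highest in dKO hearts, Myl4 is lower in all 3, and the values of dKO replicate 2 are the highest of the dKO hearts in 10 of the 13 rows below the line. Nppa, Nr2f2 and Gja5 are highest in dKO replicate 3.

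Myl9 was set beside 12 other genes marking smooth muscle, of which 11 were tested, 0 rose and 5 fell, with a median of -0.21 and a summed value of 14922 to 18544 in dKO hearts, against 34655 to 41140 in control hearts. Acta2, the smooth muscle actin that embryonic cardiomyocytes also express, was the largest part of that sum, with 9040, 8931 and 6450 in dKO hearts, against 26680, 24225 and 29957 in control hearts (log2 fold change -1.74, SE 0.13). Cnn1, which encodes calponin, fell by 2.16 on the log2 scale and Smtn, which encodes smoothelin, by 0.51, and Myh11 fell too. Synpo2 passed with an adjusted p of 0.0465 and kept its call in 1 of the 6 fits that each left out a heart (adjusted p up to 0.169). Other genes of the list did not follow Myl9. Tagln, another gene of smooth muscle and embryonic heart, had values of 778, 739 and 645 in dKO hearts and 692, 470 and 746 in control hearts (adjusted p = 0.41). The ratio of Myl9 to Tagln was thus 7.95, 8.4 and 7.17 in dKO hearts, against 21.1, 25.5 and 22.6 in control hearts. The ratio of Myl9 to Myh11, a gene with low values, overlapped between the groups. It was 77.3, 155 and 149 in dKO hearts and 95.6, 113 and 119 in control hearts. Hhip was at 0 or 1 in every heart. Of 8 genes marking pericytes, 0 passed with limma, although 6 of the 8 had an unadjusted p under 0.05, 5 of them higher in dKO hearts, a median of 0.23 and summed values of 14617 to 16307 in dKO and 12699 to 13903 in control hearts. The count was 0 with limma-voom, 1 without dKO replicate 1, with quantile normalization or with the stricter filter, and 2 with equal totals. The part of the number of smooth muscle cells in the fall of Myl9 was not tested.

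**Figure D5:**
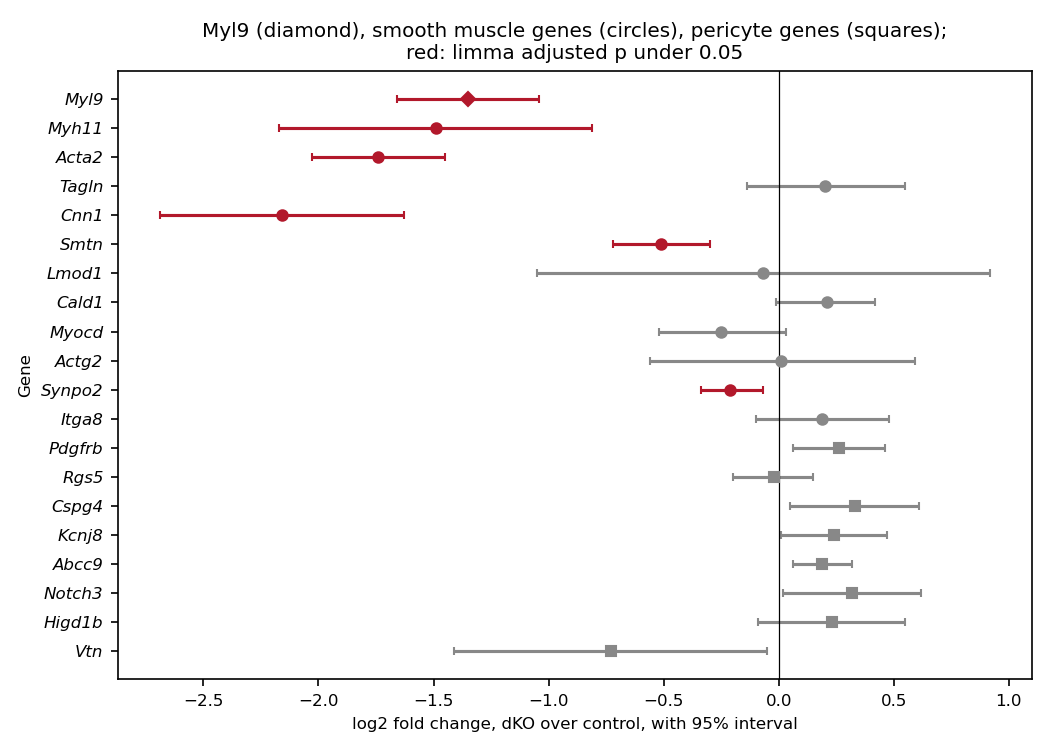
Log2 fold change of dKO over control with its 95% interval for Myl9 (diamond), smooth muscle genes (circles) and pericyte genes (squares), red where the limma adjusted p was under 0.05. Myl9 at -1.35 lies with Myh11, Acta2 and Cnn1, whereas Tagln, Cald1, Actg2 and most pericyte genes lie near or above 0.

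Markers of the other cells of the heart also differed between the groups. Of 12 cardiomyocyte genes 4 fell (Myh6, Actc1, Actn2 and Xirp1) and 0 rose (summed value 762924 to 843225 in dKO and 976088 to 1000169 in control hearts, with 1 called without dKO replicate 2, control replicate 2 or control replicate 3 and 2 without dKO replicate 3). Most of the difference in that sum lay in Myh6 (mean 34233 in dKO and 98536 in control hearts) and Actc1 (216420 in dKO and 280080 in control hearts). The call of Actc1 held under 3 of 9 other settings and in 1 of 6 fits that left out a heart. Myh7, Tnnc1 and Tnni3 were among those that did not pass. Of 9 ventricular genes other than Myl2 and Myl3, 3 rose and 3 fell, with 2 called without dKO replicate 2 or control replicate 3 and 3 without control replicate 2. Higher in dKO hearts were 7 of 12 endothelial and endocardial genes, 3 of 10 epicardial, 6 of 10 fibroblast and 7 of 10 macrophage genes, with 0 lower in each list; without control replicate 3 there were 5 epicardial genes. Of 9 red cell genes 0 passed with limma, although 6 had an unadjusted p under 0.05, 5 of them lower in dKO hearts. The count was 0 with limma-voom, 4 without dKO replicate 3, 3 without control replicate 1 and 1 without dKO replicate 1. Of 8 tested skeletal muscle genes 2 fell, Tnni2 and Ckm, which heart muscle also expresses, and 1 was called on leaving out any heart other than dKO replicate 1, and the adjusted p of Tnni2 was up to 0.107 in those fits. Of the skeletal muscle regulators, Myod1 and Pax7 are listed at 0 in every heart, Myf5 had 0, 1 and 1 in dKO hearts and 0 in all control hearts, and Myog had 3, 12 and 6 in dKO hearts and 4, 6 and 0 in control hearts. The part of cell composition in the changes of Myl9, Myl4, Myl6 and Mylk3 was not tested.

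The genes whose pattern over the 6 hearts was most like that of Myl9, by the mean absolute difference of centred log2 values among the 7567 tested genes whose mean value reached 409.7, were Abcc8 (0.076), Crhr2 (0.129), Myh6 (0.141), Ect2 (0.17) and Ppp1r1b (0.186). Abcc8 encodes the sulfonylurea receptor of potassium channels and had values of 388, 392 and 301 in dKO hearts, against 867, 824 and 946 in control hearts. For Mylk3 the nearest were Trio (0.016), Asrgl1 (0.019), Ssfa2 (0.023), Lmbrd1 (0.024) and Akap11 (0.029). Trio, a guanine nucleotide exchange factor, had 1993, 2025 and 1908 in dKO hearts, against 1533, 1593 and 1426 in control hearts. With 6 hearts in 2 groups, likeness rests mostly on the difference between the groups.

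RBPMS-family proteins bind RNA at pairs of CAC trinucleotides with a short spacer. Pairs with a spacer of 1 to 12 bases were counted in the principal transcript of each gene, and the median over 13524 tested genes was 2.82 pairs per kilobase. Myl9 had 8 pairs, or 7.09 per kilobase, above 96.6% of those genes. Myl7 followed with 3 pairs, or 5.08 per kilobase (percentile 87.1), and Myl3 with 4 pairs, or 4.27 per kilobase (percentile 78.0). The other members that were called lay in the lower part of all genes, with 1.06 per kilobase in Myl4, 1.5 in Myl6 and 1.89 in Mylk3. Myl1 had 3.74, Myl2 3.37, Mylk 3.32 and Myl12a 1.03 per kilobase. Pairs per kilobase thus lay above the median in a member that fell, Myl9, and, less far, in members that did not pass the test. A count of letters in a spliced transcript says nothing of binding.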

How the data were processed

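The hearts of 6 mouse embryos were measured by RNA sequencing of poly(A) RNA, 3 dKO and 3 control, and each sample's title gave its group and replicate number. STAR 2.4.2a, featureCounts 1.5.0, Trimmomatic, DESeq and DESeq2 were used with build mm10, per the submitters' processing notes; their roles, and whether counting used strand, are not given in the sources used here. The deposited values have no stated unit and are treated as a score: their even spacing shows that the authors scaled the reads of each sample and then rounded them to whole numbers. That spacing, what 1 read is worth, was 0.6921, 1.2102 and 0.9388 in dKO and 1.0194, 0.8595 and 1.423 in control replicates 1 to 3, and dividing each total by it gave the estimated depth. Because these are not raw counts, the main fit was not a count test. Limma-voom, run on reads estimated from the spacing, was among the alternatives.

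Limma 3.58.1 in R 4.3.3 was fitted with a variance trend on log2(value + 1) after genes averaging under 10 were dropped, with group as its only term and Benjamini-Hochberg adjustment over 15556 genes at 0.05, two-sided. Fold changes on this scale understate those of low genes. The procedure was tested on simulated data with 200 changed genes. Of 45706 gene identifiers, 45143 were found in GENCODE M21 of the same build, which gave coordinates and lengths; levels per kilobase use the principal transcript. Promoter sequences are from RefSeq (GRCm38.p6). Python 3.11.15 with numpy 2.4.6, pandas 2.3.3 and matplotlib 3.10.9 made the tables and plots.

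The members, the 17 gene lists and the markers were chosen with earlier results of these data known. Named genes are the members, Rbpms, Rbpms2, the other family genes, up to 4 called genes per list by p (or the 2 smallest p where 0 passed), and the 5 genes most like Myl9 and Mylk3. Other genes were named after their values were seen, Gja5, Synpo2, Tagln, Hhip, Myod1, Pax7, Cald1 and Actg2 among them. Alternatives were pseudocounts of 0.1 and 10, no filter, a stricter filter (50 in each of 3 samples), equal totals and quantile normalization. Further ones were limma-voom on estimated reads, a replicate block, embryo sex as a term and leaving out each heart. Sex was inferred from the Xist value of each heart. No pair of replicates within a group agreed to within sampling noise.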

Additional observations from a re-analysis of the deposited data

How the results depend on the processing

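Under the 9 alternative settings and on leaving out each heart, Myl9 (log2 fold change -1.48 to -1.21, limma adjusted p 0.000495 to 0.00396), Myl4 (-0.74 to -0.56, 0.000751 to 0.0142) and Mylk3 (0.32 to 0.41, 0.00171 to 0.0406) kept direction and call. The members called numbered 3 to 5. Myl6 lost its call with no filter on low values (-0.29, adjusted p = 0.0559), and on leaving out 1 heart it ranged from -0.33 to -0.23. Quantile normalization gave 0.03 for Myl2 and 0.29 for Myl3, which then passed. On leaving out 1 heart, Myl7 ranged from -0.45 to 0.08, Myl3 from -0.05 to 0.08 and Mylk from -0.05 to 0.18; the cause was not tested. The count of all genes called was 1755 with no filter and 2090 with embryo sex as a term. It was 1319 to 2371 on leaving out 1 heart, lowest without dKO replicate 2. Called genes in the lists ranged, on leaving out 1 heart, from 1 to 2 for other kinases, 2 to 4 for heavy chains and 1 to 5 for thick filament genes. With no filter, 3 atrial genes and 1 cardiomyocyte gene passed. Deviations of same-numbered hearts correlated at -0.041, -0.372 and 0.049. With 3 hearts per group, these values cannot decide whether replicate numbers pair the hearts. With the replicate number as a block, 3530 genes, the same 4 members, 2 other kinases, 5 thick filament genes, 5 pericyte genes and 4 red cell genes passed. Equal totals moved the median of all genes by 0.031 and the split of calls to 1569 higher and 1091 lower. The deposited scale hides the counting error of low genes, which is largest in control replicate 3, the shallowest library.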
